A study of Mus musculus with 6 samples.

Results

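Neutrophil genes and the chemokines that draw neutrophils were followed as a set of 10 genes in whole mouse embryos. The set holds the CXC chemokines Cxcl1, Cxcl2 and Cxcl5, their receptor Cxcr2, the neutrophil surface protein gene Cd177, and the neutrophil protein genes Mpo, Elane, S100a8, S100a9 and Ngp. Cxcl1 and Cd177 were chosen by their higher measured levels in homozygous embryos on these same arrays, so their values against homozygous embryos are given as a description with no test. The other 8 genes were listed for their function, to stand beside them. Every array spot that measures a gene and whose accession maps to 1 of these symbols was taken, which gave 1 probe and 1 spot for each of the 10 genes, among 39429 probes and 20659 named genes. Of the 10, 8 passed the filter on dim probes and were among the 24302 genes tested. Cxcl2 and Cxcr2 did not pass it, and Cd177 passed only through the homozygous arrays.

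The embryos were taken at day 12 and carried a mutant allele of Stat3 named STAT3-K177K180R, in which 2 residues of the encoded transcription factor are altered. There were 2 wild-type, 2 heterozygous and 2 homozygous embryos, with 1 array each. The labels state that the embryos came from the same womb and give no treatment, no other allele, and no promoter or Cre line. The extraction text names tumor tissue and 1 field calls the wild-type genotype a mutant, and the sample titles were followed for both. All 9 marker genes of day 12 embryo tissues, among them Hbb-y of embryonic red cells, Afp of fetal liver and Col2a1 of cartilage, were well above background on all 6 arrays.

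The 6 arrays had 72.0% to 78.3% of their gene spots flagged well above background by the scanner software, and no spot was saturated. Here, above background means this flag. A signal without it can still be positive and significant over background, which is a weaker flag. The wild-type and heterozygous arrays shared 1 slide and the homozygous pair lay on another, so in comparisons with homozygous embryos the slide and the genotype cannot be told apart. The median signal of the 153 negative control spots was 43.5 and 48 on the homozygous arrays and 26 to 27 on the other 4, before background subtraction. Over all genes, limma with Benjamini-Hochberg adjustment called 29.2% different in the homozygous against the wild-type arrays (14.8% up and 14.3% down), 24.7% between homozygous and heterozygous embryos (12.1% higher and 12.6% lower), and 0% between heterozygous and wild-type embryos, where 2.19% (532 genes) had an unadjusted p below 0.05. These calls between homozygous and wild-type embryos numbered 7087, and 2132 or 1837 without wild-type embryo 1 or 2, and those between homozygous and heterozygous embryos 6004, and 1620 or 2386 without heterozygous embryo 1 or 2 and 3122 without either wild-type embryo. With normexp background correction, described below, 70.6% of the calls against wild type were higher, in place of 50.9%, and 77.6% of those against heterozygous embryos, in place of 49.0%. The comparisons of both mutant genotypes with wild type share the same 2 wild-type arrays. The number of arrays, 2 per genotype, limits the precision of every value.

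Neutrophils are short-lived white blood cells that arise from blood progenitors, in the embryo largely in the fetal liver, and fill their granules in a fixed order as they mature. Mpo and Elane belong to the first, primary granules, while Ngp, Ltf, Camp and Lcn2 belong to later ones, and S100a8 and S100a9 are abundant proteins of the cytosol. Mature cells leave the blood along gradients of the chemokines CXCL1, CXCL2 and CXCL5, which they sense through CXCR2, and those chemokine genes are classic targets of the transcription factor NF-kB. STAT3 acts downstream of the receptor for granulocyte colony-stimulating factor, the main growth factor of this lineage.

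Of the 3 chemokines, Cxcl1 differed most between arrays, Cxcl5 overlapped between the genotypes, and Cxcl2 was not measured above background. Levels below are log2 of the processed signal divided by the 75th percentile of the signal on that array, and they are compared between embryos and not between genes. The level of Cxcl1, a chemokine released by epithelial, endothelial and immune cells, was -7.13 and -7.55 in wild type, -6.09 and -5.69 in heterozygous and -4.72 and -3.23 in homozygous embryos. The 3 genotypes did not overlap and stood in the order of the number of mutant alleles, with homozygous embryo 2 highest. The homozygous part of this order follows from the choice of Cxcl1. Without overlap, 40.2% of all genes were higher in homozygous than in wild-type embryos and 37.9% than in heterozygous embryos. The Cxcl1 spot was dim throughout, with a processed intensity of 6.86 and 5.27 in wild type, 16.3 and 22.7 in heterozygous and 29.9 and 77.1 in homozygous embryos. It was well above background on the 4 mutant arrays only, while the wild-type spots had the weaker flag. Of the 153 negative controls on the same array, 3 were as bright or brighter in heterozygous embryo 1 and 2 in each wild-type embryo. In heterozygous embryo 2 and both homozygous embryos the number was 0. By this count heterozygous embryo 1 was no clearer than wild type. Because neither wild-type array measured Cxcl1 well above background, lower bounds are given. For the processed signal, the homozygous mean was at least 6.03-fold higher than the dimmest signals that the wild-type arrays could measure. The heterozygous mean was at least 1.60-fold higher than those signals. The homozygous and heterozygous means differed by 1.92 on the log2 scale, a 3.77-fold ratio. The test of heterozygous against wild-type embryos, which the choice of Cxcl1 did not use directly but which shares its wild-type arrays, gave a difference of 1.44 ± 0.46 (SE, n = 2 per genotype), an unadjusted p of 0.0195 and a limma adjusted p of 1.00. The arrays of 12.7% of all genes were likewise higher in both heterozygous than in both wild-type embryos without overlap.

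The size of the Cxcl1 difference moved with the treatment of background. Against wild-type signals that were not above background, the plain difference between homozygous and wild-type means was 3.36, which is no measured size beyond the bound above. It was 2.59 with the negative control signal subtracted, and 1.09 or 0.87 with the normexp background model and its offset of 50, which shrinks dim spots. Both normexp values lie below the bound, which is 2.59 on the log2 scale and holds for the processed signal only. The plain difference was 4.11 without homozygous embryo 1 and 2.62 without homozygous embryo 2, so the direction held in each and the size did not. This direction follows from the choice of Cxcl1. Over 16 alternatives the heterozygous difference from wild type in Cxcl1 ranged from 0.048 to 1.66, so its size was not settled either.

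Cxcl2, a close relative of Cxcl1 and its neighbour on the chromosome, was not well above background on any of the 6 arrays. Its processed intensity was 2.14 and 2.26 in wild type, 2.73 and 2.30 in heterozygous and 2.28 and 2.75 in homozygous embryos. Between 14 and 67 of the 153 negative controls on the same array were as bright or brighter, so the data hold no measured level of Cxcl2 and no fold is given. Cxcl5, which in mice is a chemokine made mainly by epithelium, was well above background on all 6 arrays. Its level was -4.42 and -4.21 in wild type, -4.62 and -4.39 in heterozygous, and -4.43 and -3.86 in homozygous embryos, and the 3 genotypes overlapped. It did not pass the test in either mutant genotype against wild type, with differences of 0.17 ± 0.22 (limma adjusted p = 0.589) for homozygous and -0.19 ± 0.22 (1.00) for heterozygous embryos. Without homozygous embryo 2 the first of these was -0.12.

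In the RefSeq gene order of the GRCm38.p6 assembly, Cxcl5, Ppbp, Pf4, Cxcl3, Cxcl15, Cxcl1 and Cxcl2 lie in 1 cluster. Cxcl3 was above background on none of the arrays and Cxcl15 on 1. The platelet chemokine genes Pf4 and Ppbp did not pass against wild type, with homozygous differences of 0.31 ± 0.22 and 0.62 ± 0.31 (limma adjusted p = 0.305 and 0.172). Like Cxcl5, they were above background on all 6 arrays. Cxcl1 was the only gene of the cluster measured above background on both homozygous arrays and on no wild-type array. Nothing is read from this, since Cxcl1 was chosen for its levels in homozygous embryos.

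The 250 bases before the RefSeq transcription start of Cxcl1 and Cxcl2 are shown because these neighbours share an NF-kB sequence while only Cxcl1 was measured, and those of Cd177 because it was the other member chosen for its levels in homozygous embryos. Each is written 5′ to 3′ on the strand of the gene in the GRCm38.p6 assembly, Cxcl1 at chr5:90890995-90891244 and Cxcl2 at chr5:90903649-90903898 on the plus strand, and Cd177 at chr7:24760312-24760561 on the minus strand. Capitals mark matches to a form of the NF-kB motif, GGG, then any 2 bases, then TTTCC, on either strand in Cxcl1 and Cxcl2, and TATAAA, the TATA box, in Cd177.
Cxcl1: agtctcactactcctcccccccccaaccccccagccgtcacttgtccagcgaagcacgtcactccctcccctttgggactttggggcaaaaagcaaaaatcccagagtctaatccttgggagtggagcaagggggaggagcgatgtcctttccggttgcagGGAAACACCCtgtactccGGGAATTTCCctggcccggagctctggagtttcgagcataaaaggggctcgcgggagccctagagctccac
Cxcl2: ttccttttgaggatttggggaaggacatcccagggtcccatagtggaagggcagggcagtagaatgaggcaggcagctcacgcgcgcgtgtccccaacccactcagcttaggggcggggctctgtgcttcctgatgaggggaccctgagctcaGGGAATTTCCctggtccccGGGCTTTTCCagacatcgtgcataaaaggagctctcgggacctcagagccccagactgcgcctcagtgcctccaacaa
Cd177: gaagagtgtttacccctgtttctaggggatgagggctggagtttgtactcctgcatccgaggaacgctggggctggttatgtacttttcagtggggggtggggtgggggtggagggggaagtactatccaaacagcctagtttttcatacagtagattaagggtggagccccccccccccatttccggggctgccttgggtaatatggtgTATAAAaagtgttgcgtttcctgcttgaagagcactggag
Cxcl1 and Cxcl2 each held 2 matches to the NF-kB form. The match GGGAATTTCC lies 71 to 62 bases before the start of Cxcl1 and 97 to 88 bases before that of Cxcl2, inside GGGAATTTCCctgg, at 14 bases the longest run the 2 windows share. The second match lies 89 to 80 bases before the start of Cxcl1, on the other strand, and 78 to 69 bases before that of Cxcl2. Searched on both strands in the same window of all 32536 RefSeq promoters of the table, the form was found in 454 (1.40%). Of the 9 members with an entry in the table, the other 7 did not hold it. The motif TTCNNNGAA, a spacing bound by STAT proteins, was found in none of the 9 windows and in 7.04% of all promoters. TTGCNNAA, a form bound by the granulocyte factors of the C/EBP family, was found in S100a9 and, at 2 places, in Ngp, and in 9.57% of all promoters. TATAAA was found in Cd177, 40 to 35 bases before the start, in S100a8, 30 to 25 bases before it, and in 12.3% of all promoters.

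**Figure D1:**
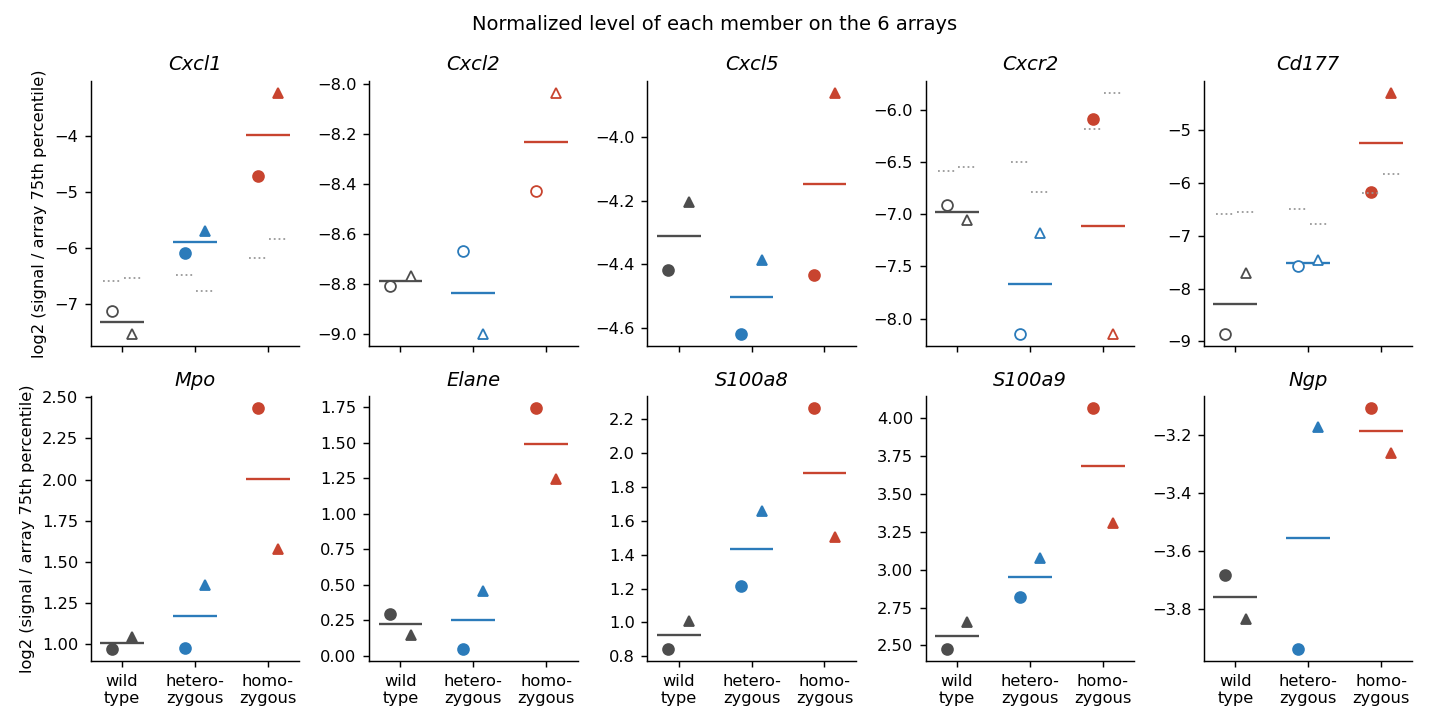
Level of each of the 10 genes on the 6 arrays, as log2 of the processed signal over the 75th percentile of the array, with circles for embryo 1, triangles for embryo 2 and a line at the mean of each genotype. Filled symbols are well above background and open symbols are not, short dotted lines mark the lowest signal well above background on that array where it falls in range, and each panel has its own axis, which does not start at 0. Cxcl1 and Cd177 are highest in homozygous embryo 2, while Mpo, Elane, S100a8, S100a9 and Ngp are higher in homozygous embryo 1 than in embryo 2.

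Cxcr2, the receptor of these chemokines on neutrophils, was close to background and showed no order by genotype. Its processed intensity was 7.98 and 7.41 in wild type, 3.92 and 8.12 in heterozygous and 11.6 and 2.55 in homozygous embryos. Homozygous embryo 1 had the highest signal, the only one well above background, and homozygous embryo 2 had the lowest. Cxcr1, the neighbouring gene for the related receptor, was measured on all 6 arrays and was 1.33 ± 0.44 higher on the log2 scale in homozygous than in wild-type embryos, which did not pass the test (limma adjusted p = 0.0629). Its difference from the wild-type mean was 0.61 in homozygous embryo 1 and 2.06 in homozygous embryo 2, the reverse of the order of Cxcr2.

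Cd177, which codes for a glycoprotein anchored on the surface of a subset of neutrophils, was well above background in homozygous embryos only. Its level was -8.86 and -7.71 in wild type, -7.57 and -7.45 in heterozygous, and -6.17 and -4.30 in homozygous embryos. The genotypes did not overlap, and homozygous embryo 2 again stood highest. The homozygous part of this order follows from the choice of Cd177. Without overlap, 40.2% of all genes were higher in homozygous than in wild-type embryos and 37.9% than in heterozygous embryos. For heterozygous against wild-type embryos the share was 12.7%. Wild-type and heterozygous signals were not well above background and had only the weaker flag. The processed intensities were 2.06 and 4.72, 5.84 and 6.73, and 10.9 and 36.7 in the same order, and only the 2 homozygous arrays were flagged well above background. The homozygous mean was at least 2.52-fold higher than what the wild-type arrays could measure and at least 2.65-fold higher than what the heterozygous arrays could measure. Between 1 and 7 of the 153 negative controls were as bright as the Cd177 spot of the same array, 1 of them on each homozygous array. Heterozygous and wild-type signals were not well above background, so no fold between them is given.

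The plain difference in Cd177 between homozygous and wild-type means was 3.05, again against signals not well above background, so it is no measured size beyond the bound above. With the negative control signal subtracted this difference was 1.19, and with the normexp model 0.73 or 0.43. These values lie below the bound against wild type, which is 1.33 on the log2 scale and holds for the processed signal only. The plain difference was 3.99 without homozygous embryo 1 and 2.11 without homozygous embryo 2.

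By the root mean square distance between centred log2 levels over the 6 arrays, the gene nearest to both Cxcl1 and Cd177 was Tmem72, at 0.48 and 0.45. Cxcl1 and Cd177 were 0.55 apart, which made Cd177 second nearest to Cxcl1 and Cxcl1 the fifth nearest to Cd177. Tmem72, a transmembrane protein gene, was well above background on all 6 arrays, with levels of -5.60 and -5.68 in wild type, -4.82 and -5.36 in heterozygous and -3.21 and -1.83 in homozygous embryos. The others nearest to Cxcl1 were Ccn6, Gsdma3 and Krtap31-1, and those nearest to Cd177 were Rnf225, Olfr331 and Akr1c18. Each of these 6 genes was above background on 2 or 3 of the 6 arrays. None of the other neutrophil genes listed here was among the 5 nearest to either. These distances and ranks include signals not above background, on 2 arrays for Cxcl1 and 4 for Cd177, and describe the arrays with no test. The levels were not scaled to the size of their changes, so genes with smaller changes lie further away. Cxcl1 and Cd177 were both chosen for high levels in homozygous embryos, so nothing is read from their closeness or from the absence of other neutrophil genes.

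The genes of the neutrophil granules and cytosol were well above background on every array, wild type included, and 4 of the 5 rose in homozygous embryos, 1.95- to 2.41-fold against wild type. S100a9, S100a8, Mpo and Elane passed the test against wild type and Ngp and Cxcl5 did not, which is 4 of the 6 members tested here, beside 29.2% of all genes. Since the set was chosen with this contrast in view, nothing is read from that share. Because whole embryos were measured, more cells of a type and more RNA per cell cannot be told apart.

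Elane, the gene of neutrophil elastase, a serine protease of the primary granules, had levels of 0.29 and 0.15 in wild type, 0.05 and 0.45 in heterozygous, and 1.74 and 1.24 in homozygous embryos. Both homozygous embryos lay above all 4 others, as they did above both wild-type embryos for 40.2% of all genes and above both heterozygous embryos for 37.9%, and the wild-type and heterozygous embryos overlapped. The homozygous embryos were 1.27 ± 0.22 (SE, n = 2 per genotype) higher than wild type on the log2 scale, or 2.41-fold (limma adjusted p = 0.00973), and 1.24 ± 0.22 higher than heterozygous embryos (0.0124). The heterozygous difference from wild type was 0.03 ± 0.22. Leaving out wild-type embryo 1 or 2 gave 1.34 and 1.197 with adjusted p of 0.0523 and 0.0725, and the difference from heterozygous embryos without heterozygous embryo 1 was 1.04 (0.0770).

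Mpo codes for myeloperoxidase, the primary granule enzyme that makes hypochlorous acid. Its level was 0.97 and 1.05 in wild type, 0.98 and 1.36 in heterozygous, and 2.43 and 1.58 in homozygous embryos. The homozygous embryos lay above the others, embryo 1 far more than embryo 2. For all genes the shares were 40.2% above both wild-type and 37.9% above both heterozygous embryos. Mpo was 1.00 ± 0.29 higher in homozygous than in wild-type embryos (limma adjusted p = 0.0450) and 0.84 ± 0.29 higher than in heterozygous embryos, which did not pass (0.0798). The call against wild type was lost without homozygous embryo 1 (0.57, adjusted p = 0.0611), without either heterozygous embryo (1.00, 0.0675) and without wild-type embryo 1 or 2 (0.96 and 1.04, 0.176 and 0.158).

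S100a9 and S100a8 lie side by side on the chromosome and encode the subunits of calprotectin, a calcium- and zinc-binding protein that makes up much of the neutrophil cytosol. S100a9 had levels of 2.47 and 2.65 in wild type, 2.82 and 3.08 in heterozygous, and 4.07 and 3.31 in homozygous embryos. S100a8 had levels of 0.84 and 1.01, 1.21 and 1.66, and 2.27 and 1.505 in the same order. S100a9 stood higher without overlap from wild type to heterozygous embryos, as did 12.7% of all genes, and from heterozygous to homozygous embryos, as did 37.9%, while for S100a8 heterozygous embryo 2 lay above homozygous embryo 2. Against wild type, homozygous embryos were 1.13 ± 0.26 higher in S100a9 (limma adjusted p = 0.0230) and 0.96 ± 0.28 higher in S100a8 (0.0447). Heterozygous embryos differed from wild type by 0.39 ± 0.26 and 0.51 ± 0.28, both with an adjusted p of 1.00, and homozygous from heterozygous embryos by 0.74 ± 0.26 (0.0817) and 0.45 ± 0.28 (0.264). The S100a9 call was lost without wild-type embryo 1 (1.04, adjusted p = 0.121) or 2 (1.21, 0.0941), and the S100a8 call without homozygous embryo 1 (0.58, 0.0779), without either heterozygous embryo (0.96, 0.0618), and without wild-type embryo 1 or 2 (0.88 and 1.05, 0.188 and 0.144). Without homozygous embryo 2, the differences from heterozygous embryos passed for S100a8 (0.83), S100a9 (1.12) and Mpo (1.26).

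Ngp, the gene of neutrophilic granule protein, a cathelicidin relative of the later granules, had levels of -3.68 and -3.83 in wild type, -3.94 and -3.17 in heterozygous, and -3.11 and -3.26 in homozygous embryos. The homozygous embryos lay above both wild-type embryos, as for 40.2% of all genes, but heterozygous embryo 2 was as high and heterozygous embryo 1 was the lowest of the 6. Ngp did not pass against wild type, at 0.57 ± 0.25 (limma adjusted p = 0.132). Its difference between homozygous and heterozygous embryos was 0.37 ± 0.25 (0.305), and without heterozygous embryo 1 it was -0.01, while without either heterozygous embryo the difference from wild type had an adjusted p of 0.0482.

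Which of the 2 homozygous embryos stood higher differed between the members. Against the wild-type mean, Cxcl1 stood 2.62 higher in homozygous embryo 1 and 4.11 higher in embryo 2, and Cd177 2.11 and 3.99. Both were set against wild-type signals not well above background. Mpo instead stood 1.43 higher in embryo 1 and 0.57 in embryo 2, S100a9 1.503 and 0.75, S100a8 1.34 and 0.58, Elane 1.52 and 1.02, and Ngp 0.65 and 0.50. So the embryo with the most Cxcl1 and Cd177 signal had the smaller rise in all 5 granule and cytosol genes. Of 25 other neutrophil genes tested, 22 were likewise lower in embryo 2 than in embryo 1, with a median difference of -0.54, where the median of all genes was -0.06 with quartiles of -0.28 and 0.20 and 56.5% were lower. The 3 that were higher in embryo 2 were Lcn2, at 1.31 in embryo 1 and 2.04 in embryo 2, Mmp9, the gelatinase of later granules, at 0.26 and 0.93, and Csf3r at 0.098 and 0.29. With 1 embryo on each side this difference has no replicate and no test.

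**Figure D2:**
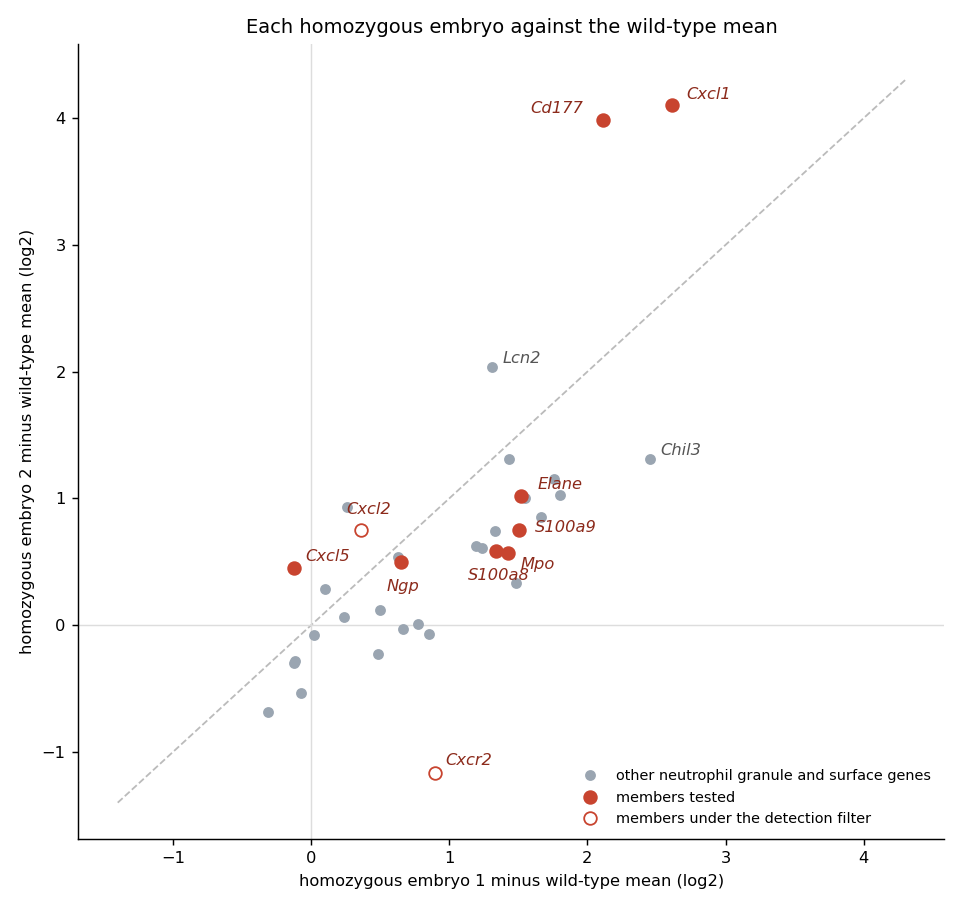
Log2 difference of homozygous embryo 1 (horizontal axis) and homozygous embryo 2 (vertical axis) from the mean of the 2 wild-type embryos, for the 10 members in red and 25 other neutrophil genes in grey, with a dashed line where both embryos are equal. Open symbols are Cxcl2 and Cxcr2, which did not pass the filter on dim probes. Cxcl1 and Cd177 lie above the line, and Mpo, Elane, S100a8, S100a9, Ngp and 22 of the 25 other genes lie below it.

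A wider list of 30 neutrophil granule and surface genes, without the members, had 28 on the array and 25 tested. Of these, 11 rose in homozygous against wild-type embryos, none fell and 14 did not pass, beside 14.8% higher among all genes. Their median difference was 0.58 against 0.09 for all genes. Marker lists of other cells and tissues had medians from -0.13 (lymphocyte) to 0.95 (mast cell and basophil). Macrophage genes were at 0.54, fetal hepatocyte genes at 0.52 and day 12 embryo tissue genes at 0.39. Fpr1, a receptor for bacterial formyl peptides, was higher by 1.37 ± 0.19 (limma adjusted p = 0.00459). Lcn2, the iron-sequestering lipocalin of later granules, was higher by 1.67 ± 0.24 (0.00545), Gfi1, a transcription factor that neutrophil precursors require, by 1.45 ± 0.24 (0.00851), and Ctsg, the primary granule protease cathepsin G, by 1.28 ± 0.23 (0.0108). Among the other 7 were Camp, Chil3, Ltf, Ncf4, Cybb and Ncf1, between 0.58 for Ncf1 and 1.88 for Chil3. Genes of the mature surface were among those that did not pass, such as Itgam at -0.31 ± 0.24, Itgb2 at -0.21 ± 0.13 and Csf3r, the receptor for granulocyte colony-stimulating factor, at 0.19 ± 0.14, as was Prtn3, which neighbours Elane, at 0.39 ± 0.29. These last 6 and 4 genes were picked with their values known.

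Of the same 25, 5 rose in homozygous against heterozygous embryos (Chil3, Lcn2, Camp, Gfi1 and Ctsg) and none fell, beside 12.1% higher among all genes, and none passed between heterozygous and wild-type embryos. The count of 11 was 2 without wild-type embryo 1, 3 without wild-type embryo 2, 15 without homozygous embryo 2 and 6 with no filter on dim probes, and 9 or 10 without each of the other 3 arrays. The count of 5 was 0 and 1 without heterozygous embryo 1 and 2, 2 without either wild-type embryo, 13 without homozygous embryo 2 and 16 with normexp. Fpr1 and Lcn2 kept their call in each of the 15 alternatives tried, Fpr1 at 0.54 with the normexp and quantile setting at the lowest, while Gfi1 lost it without wild-type embryo 1 (1.36, adjusted p = 0.0590) and Ctsg without wild-type embryo 1 or 2 (1.19 and 1.36, 0.0712 and 0.0586).

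Of 18 other CXC chemokine and receptor genes, 15 were tested. In homozygous against wild-type embryos 5 rose, 1 fell and 9 did not pass, beside 14.8% higher and 14.3% lower among all genes, with a median of 0.55 against 0.09 for all genes. Cxcl12, which holds progenitors and neutrophils in blood-forming tissue, was higher by 0.84 ± 0.12 (limma adjusted p = 0.00556), although its second probe differed by 0.35 and did not pass. Cxcl16, a membrane-bound chemokine, was higher by 0.55 ± 0.12 (0.0195), and the scavenging receptor gene Ackr3 by 0.55 ± 0.13 (0.0238). Cxcl13, which attracts B cells, fell by 0.65 (SE 0.15, adjusted p = 0.0222). The count of 5 was 8 with normexp, 1 without wild-type embryo 1 and 0 without wild-type embryo 2, where Cxcl12 had an adjusted p of 0.0620, Cxcl16 of 0.143, Ackr3 of 0.141 and Cxcl13 of 0.156. None passed between heterozygous and wild-type embryos, and 5 rose and 2 fell in homozygous against heterozygous embryos, beside 12.1% and 12.6% of all genes.

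Several cytokines known to induce Cxcl1 were near or below background. Of 19 cytokine, receptor and NF-kB genes all were on the array, but Csf3, Csf2 and Il17a were above background on none of the arrays, Tnf on 1 and Il6 and Il1a on 2, and 13 genes were tested. Il1b, a main inducer of Cxcl1, was dim but above background on 5 arrays and differed by 0.50 ± 0.39 in homozygous against wild-type embryos (limma adjusted p = 0.361), and Il33 was above background on all 6 and differed by -0.013 ± 0.17 (0.960). Of the 13, 4 rose and 1 fell in that comparison, beside 14.8% and 14.3% of all genes, with a median of 0.38 against 0.09 for all genes. Zfp36, which codes for a protein that destabilises cytokine mRNA, was higher by 0.89 ± 0.18 (limma adjusted p = 0.0166), Tnfaip3, which codes for the NF-kB inhibitor A20, by 0.59 ± 0.12 (0.0176), and Csf1, the macrophage growth factor gene, by 0.61 ± 0.15 (0.0272). Tnfrsf1a, a receptor of tumour necrosis factor, fell by 0.72 (SE 0.19, adjusted p = 0.0353), while its second probe was higher by 0.21. The count of 4 was 1 without wild-type embryo 1 and 0 without wild-type embryo 2, and the Tnfrsf1a call was also lost without homozygous embryo 2 (-0.46, adjusted p = 0.0567) or either heterozygous embryo (0.0654) and that of Csf1 without homozygous embryo 1 (0.53, 0.0505).

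Among 10 adhesion genes of vessels and neutrophil passage, 9 were tested and only Selp passed against wild type, where 14.8% of all genes were higher, with a median of 0.43 over the list. Selp, the gene of P-selectin on platelets and activated endothelium, was higher by 1.23 ± 0.12 (limma adjusted p = 0.00186) and kept its call in all 15 alternatives, at 0.42 with the normexp and quantile setting at the lowest. Icam2, Vcam1 and F11r differed by 0.46 ± 0.15, 0.48 ± 0.17 and 0.56 ± 0.21 and did not pass (0.0647, 0.0782 and 0.0888). The count of 1 was 4 with normexp and 3 without either homozygous embryo. Icam2 passed without homozygous embryo 2 (0.60, 0.0319), and Vcam1 and F11r without homozygous embryo 1 (0.60 and 0.77, F11r at 0.0341). Sele was above background on none of the arrays.

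Markers of other blood cells moved as well, and their part in the neutrophil values was not tested. Of 9 macrophage genes on the array, 4 rose in homozygous against wild-type embryos (C1qa, C1qc, Mrc1 and Cx3cr1) and none fell, to be read, as are the lists that follow, beside 14.8% higher and 14.3% lower among all genes. The signal of the 9 summed over each array, in units of its 75th percentile, was 11.2 and 11.3 in wild type, 11.9 and 12.7 in heterozygous, and 15.2 and 13.2 in homozygous embryos. Csf1r and Adgre1 differed by 0.23 ± 0.16 and -0.02 ± 0.19. Their other probes disagreed, with 2 for Csf1r at 0.09 and at -0.61, the latter past the threshold (limma adjusted p = 0.0291 over every probe), and 1 for Adgre1 at 0.45 (0.141). Of 7 mast cell and basophil genes on the array, 5 were tested and 4 rose (Cpa3, Tpsb2, Prss34 and Mcpt4), with a summed signal of 1.04 in both wild-type embryos, 1.61 and 1.56 in heterozygous, and 1.78 and 2.25 in homozygous embryos, while Fcer1a and Ms4a2 were above background on none of the arrays. The second probe of Tpsb2 differed by 0.058 (0.835), against 1.08 for the one used. Eosinophil genes gave 0 higher and 1 lower of 5, Il5ra, with Prg2 at 0.48 ± 0.30 and Siglecf at -0.11 ± 0.22, and a summed signal between 0.42 and 0.55 on all 6 arrays. Of 8 blood progenitor genes, Kit alone rose (0.78 ± 0.16, limma adjusted p = 0.0153), with Cd34 at 0.16 ± 0.13 and Myb at 0.51 ± 0.23.

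None of 7 erythroid, 5 megakaryocyte or 4 lymphocyte genes passed against wild type, among them Hba-a1 (0.25 ± 0.13), Alas2 (0.24 ± 0.22), Gp9 (0.08 ± 0.27), Gp1ba (0.97 ± 0.33), Cd3e (-0.19 ± 0.23) and Cd79a (0.04 ± 0.20). Of 5 fetal hepatocyte genes, Afp (0.63 ± 0.13) and Apoa2 (0.81 ± 0.15) rose and Alb did not pass (0.49 ± 0.19), while a second Apoa2 probe differed by 0.21 and did not pass (limma adjusted p = 0.413). Of 4 tested placenta and decidua genes, Prl3d1 rose (0.77 ± 0.20) and Gcm1 and Psg17 fell, Gcm1 by 2.20 (SE 0.37), and Prl3b1 did not pass (0.53 ± 0.18). Tpbpa and Prl8a2 of the same list were above background on none of the arrays, while the 4 tested genes were above it on all 6.

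**Figure D3:**
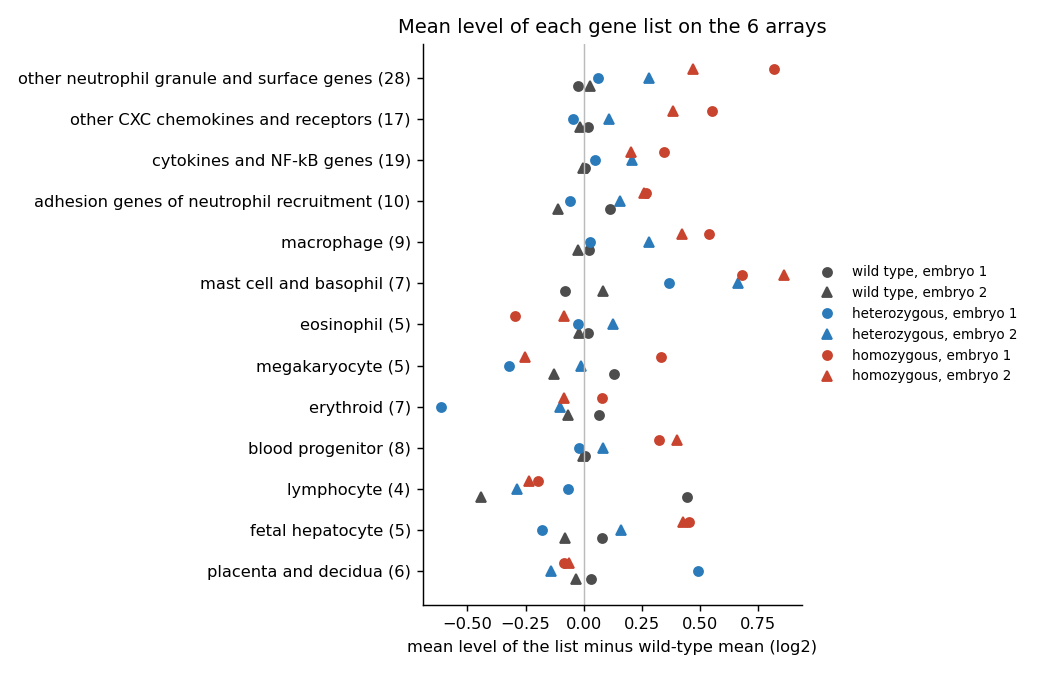
Mean over each gene list of the log2 difference from the wild-type mean, for each of the 6 arrays, with circles for embryo 1 and triangles for embryo 2 and the number of genes on the array in brackets, dim probes included. In the list of other neutrophil genes both homozygous embryos stand highest, embryo 1 above embryo 2. The same holds in the CXC, adhesion, macrophage and fetal hepatocyte lists. In the blood progenitor and the mast cell and basophil lists both also stand highest, with embryo 2 above embryo 1. Mast cell and basophil genes are higher in both mutant genotypes than in wild type.

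Between heterozygous and wild-type embryos, which share a slide, 0 of the 8 members tested passed, beside 0% of all genes. Cxcl1, S100a8 and S100a9 were higher in both heterozygous than in both wild-type embryos, beside 12.7% of all genes. The wild-type Cxcl1 signals were not well above background. Mpo (0.16 ± 0.29), Elane, Ngp (0.20 ± 0.25) and Cxcl5 overlapped, and Cd177 was not well above background in either genotype. All 8, the dim Cd177 signals included, were higher in heterozygous embryo 2 than in embryo 1, with a median of 0.39, where 40.9% of all genes were higher and their median was -0.05. Fitting the 4 arrays of that slide alone called 0 genes.

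**Figure D4:**
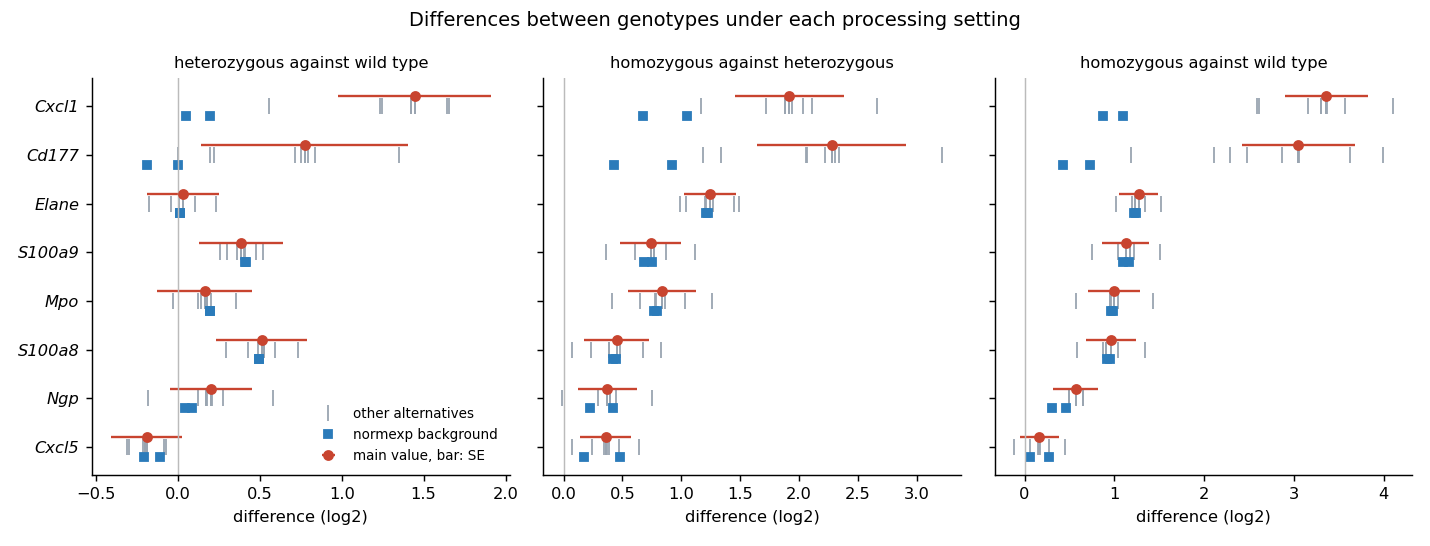
Log2 difference between genotypes for the 8 tested members under every processing setting, with the main value and its standard error in red, both settings with normexp background correction as blue squares and all others, each array left out in turn included, as grey ticks. In homozygous against wild-type embryos Cxcl1 spans 0.87 to 4.11 and Cd177 0.43 to 3.99, Elane 1.02 to 1.52, and Cxcl5 alone crosses 0.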

How the data were processed

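Total RNA of 6 day 12 mouse embryos, 2 per genotype, was amplified, labelled with Cy3 and measured on 1-colour Agilent mouse arrays, per the labels' protocols. The authors deposited spot intensity values from Agilent Feature Extraction 11.0.1.1, a version also named in the submitters' processing notes, and per the file headers the processed signal is background-subtracted within an array, with nothing done across arrays. A log2 table was deposited as well, with a median of 6.72 on every array, whose method is not given in the sources used here. It correlated at 0.995 to 0.999 with the scanner values.

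Control spots and spots flagged as outliers (158 to 189 per array) were left out, and spots of a probe averaged. The log2 processed intensity minus the 75th percentile of the array was used. Of 39429 probes, 29910 were kept, those flagged well above background in both embryos of any genotype, and a gene was its brightest kept probe. Accessions were matched to symbols through RefSeq (GRCm38.p6), which named 69.1% of probes, while the array was annotated to mm9, so coordinates are given for RefSeq promoters only. All 6 arrays entered 1 linear model of genotype (limma 3.58.1, R 4.3.3, lmFit and eBayes, 3 residual degrees of freedom), with Benjamini-Hochberg adjustment over 24302 genes and a threshold of 0.05. The script was tested on simulated data. No step could correct for slide.

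A gene not measured above background in 1 of 2 groups is given as a lower bound, from the bright group's mean and, per array, the higher of the lowest signal well above background (9.95 to 12.6) and the dim signal itself. Such a bound holds for the processed signal and not for other treatments of background. The labels state the same womb and nothing says that embryos came from separate litters, so p-values measure the spread between these embryos and not between litters. Genes named are the 10 members, the 4 of each pathway list with the smallest p against wild type, the 3 brightest of each marker list, and the 5 nearest to Cxcl1 and to Cd177. Values of some single genes of the lists are not reported here. Other genes named from the lists were chosen after their values were seen. The members and lists were chosen with earlier results of these data known.

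Alternatives were normexp background correction with an offset of 50 (on median spot signals, since mean signals were not used here), alone or with quantile normalization, median scaling, quantile normalization, no filter, a filter on all 6 arrays, every probe, the authors' log2 table, negative controls subtracted, the replicate number as a block, and each array left out. The counts of list members and the named list genes under these settings were added after seeing the data.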

Additional observations from a re-analysis of the deposited data

How the results depend on the processing

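The direction of every tested member between homozygous and wild-type embryos held in all settings tried, except Cxcl5, which ranged from -0.12 to 0.45 with 1 array left out. For Cxcl1 and Cd177 this direction follows from their choice by higher levels in homozygous embryos. Mpo lost its call in 8 and S100a8 in 7 of 16 alternatives, S100a9 and Elane in 2 each. Beside the losses given above and those with the replicate block, the call was lost without a filter (S100a8 0.0786, Mpo 0.0790) and with negative controls subtracted (Mpo 0.0505). Ngp passed with normexp (0.46, adjusted p = 0.0328).

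With normexp at the 75th percentile the median of all genes moved from 0.09 to 0.20 against wild type and from 0.10 to 0.25 against heterozygous embryos, where 11760 genes were called in place of 6004. Relative to that median Cxcl1 was 0.89 and Cd177 0.52 higher than in wild type. Under this setting Cd177 was -0.19 in heterozygous against wild-type embryos, and Cxcl5 (0.48), S100a9 (0.69), Ngp (0.42) and Mpo (0.79) passed between homozygous and heterozygous embryos. The cause was not tested.

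Leaving out 1 array gave 1837 to 8809 calls against wild type, 1620 to 7851 against heterozygous embryos, and 0 to 6 between heterozygous and wild-type embryos (3 and 6, all lower, without wild-type replicate 1 and 2). With 1 array left out, the heterozygous difference from wild type ranged from -0.18 to 0.58 in Ngp, -0.029 to 0.35 in Mpo and -0.18 to 0.23 in Elane (-0.04 without wild-type replicate 2), and the difference of homozygous from heterozygous embryos in Ngp from -0.011 to 0.75. These fits have fewer samples.

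Embryos with the same replicate number shared only a number, since their deviations correlated at 0.0082, -0.16 and 0.25 between the genotypes. With the replicate block 6845, 5655 and 0 genes were called (608 at an unadjusted p below 0.05 between heterozygous and wild-type embryos), and Mpo (0.0670) and S100a8 (0.0697) lost their call. The slide as a block was not run for homozygous embryos, because slide and genotype coincide there. Cxcl2 and Cxcr2 had no value under most settings, and low signal over background also limits Cxcl1 and Cd177.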
